A study of Homo sapiens with 12 samples.

Results

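The cadherin superfamily genes examined here are the classical cadherins and their relatives, the protocadherins, the desmosomal cadherins and the plaque proteins that anchor them. They were taken from a gene count table by their symbols: CDH, PCDH, PCDHA, PCDHB, PCDHGA, PCDHGB or PCDHGC followed by a number, DSG1 to DSG4, DSC1 to DSC3, PKP1 to PKP4, JUP and DSP. This rule found 99 of the 57500 genes of the table. By role they are 5 type I cadherins, 13 type II cadherins, 5 other cadherins, 7 desmosomal cadherins, 6 junction plaque genes, 11 non-clustered protocadherins, and 14 alpha, 16 beta and 22 gamma protocadherins. The rule leaves out PCDHAC1 and PCDHAC2, the C-type genes of the alpha array, but takes in the C-type genes of the gamma array.

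The counts come from bulk RNA-seq of 12 libraries of human cancer cell lines, 4 groups of 3 biological replicates. SW480, from a primary colorectal tumour, and SW620, from a metastasis in the same person, were untreated and grown in DMEM with 10% serum. PEO4, an ovarian cancer line, was grown in RPMI 1640 with 10% serum, either without an added agent or with recombinant human TGFbeta at 10 ng/mL for 6 days. The study set SW620 against SW480, and PEO4 with TGFbeta against PEO4 control. Each group is 1 established cell line, so a difference between SW620 and SW480 is a difference between 2 lines. The labels do not say how the replicate cultures were separated, so the p-values measure the spread between these libraries, which may be technical. Total RNA was depleted of ribosomal RNA before library preparation.

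Classical cadherins hold neighbouring cells together through calcium-dependent binding between their extracellular domains, and their cytoplasmic tails bind catenins that connect them to actin. Desmosomal cadherins, the desmogleins and desmocollins, do the same for intermediate filaments through plakoglobin (JUP), plakophilins and desmoplakin (DSP). Clustered protocadherins lie in 3 neighbouring arrays on chromosome 5, in which each variable first exon has its own promoter and, in the alpha and gamma arrays, is spliced to constant exons that all members share. A fall of E-cadherin (CDH1) with a rise of N-cadherin (CDH2) is the textbook change of epithelial cells exposed to TGFbeta.

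The sharing of exons limits what a count means for a clustered member, so the first shared coding exon of each array is shown. In GENCODE 29 (GRCh38), 13 of the 14 alpha members (all but the pseudogene PCDHA14) and 22 of the 22 gamma members carry an identical 59-base coding exon, on the plus strand at chr5:140978949-140979007 for alpha and chr5:141494807-141494865 for gamma.
Alpha shared exon: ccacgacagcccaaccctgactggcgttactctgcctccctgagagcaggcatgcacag
Gamma shared exon: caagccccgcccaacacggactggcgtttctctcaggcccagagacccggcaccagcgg
With the exons that follow, 456 coding bases are shared by the alpha members and 372 by the gamma members, and a read that lies wholly in them cannot be given to 1 member. How the submitters' counting treated such reads is not given in the sources used here. PCDHGA3 had only 10 to 22 counts in the 6 PEO4 libraries, so shared reads were not added in full to every gamma member.

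The start of each variable exon is where members of an array differ in use, and 30-base windows from the 250 bases upstream are shown for 2 kinds of member. These are members among the highest of an array in PEO4, and the called beta and gamma members with PCDHGA7, PCDHGB5 and PCDHGC3, which were not called in the fit used here. Each window was cut around the first match of its array's motif: TGTCGCT for alpha, GGTGGCGCT for beta, and GCCGCT or GTCGCT for gamma. All windows therefore hold CGCT at the same place by construction. RefSeq promoters (GRCh38.p14, 250 bases before to 50 after the start) were matched by symbol for 11 of 14 alpha, 14 of 16 beta and 20 of 22 gamma members; PCDHA3, PCDHA13, PCDHA14, PCDHB6, PCDHB11, PCDHGA12 and PCDHGC5 were not matched. All windows are on the plus strand, and the capitals mark the letters CGCT, the core that promoters of these arrays are known to share.
PCDHA6 (chr5:140827900-140827929): agccgcatgatgtCGCTgtctaccatgaag
PCDHA10 (chr5:140855844-140855873): agccaccggatgtCGCTgtcgtccacaaaa
PCDHA12 (chr5:140875247-140875276): agtcacatgatgtCGCTctacactcagaag
PCDHB2 (chr5:141094547-141094576): agacgcggggtggCGCTgcagccttagaag
PCDHB13 (chr5:141213868-141213897): ggacgcgtggtggCGCTgcaggataagaag
PCDHB14 (chr5:141223266-141223295): agacacatggtggCGCTacaggataagacg
PCDHGA1 (chr5:141330406-141330435): ggactgtgggcgcCGCTgttcactaatctg
PCDHGB2 (chr5:141359924-141359953): aacctctgagcgtCGCTgttggtcaaaaga
PCDHGA5 (chr5:141364110-141364139): ggactctgagtgtCGCTgttgaccaaagtg
PCDHGB3 (chr5:141370165-141370194): aggcgccgggtgcCGCTcttggctagtgct
PCDHGA6 (chr5:141373838-141373867): ggactctaagcgtCGCTgttgaccaacctg
PCDHGA7 (chr5:141382652-141382681): ggactcacagcgcCGCTgttcaccaaccag
PCDHGB4 (chr5:141387620-141387649): tgactctgggcgcCGCTgttggccaaagtg
PCDHGB5 (chr5:141397866-141397895): tgactctgggcgcCGCTgttggccaaagtg
PCDHGC3 (chr5:141475883-141475912): ggactctgtgtgcCGCTgtcggccaatgaa
In these windows the core lay 38 to 199 bases before the annotated start. Searched on both strands of the 300-base promoters, TGTCGCT was in 10 of 11 alpha members and in 1.76% of all 35116 promoters. GGTGGCGCT was in 13 of 14 beta members and in 0.501% of all promoters. GNCGCTGT was in 17 of 20 gamma members, in 5 of 11 alpha members and in 4.35% of all promoters. The bare CGCT was in 70.0% of all promoters, and each longer motif contains it. The longer motifs were chosen after the sequences were seen, a match is only a description, and the windows of PCDHGB4 and PCDHGB5 hold the same 30 letters.

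The libraries held 14531420 to 22028956 counts, of which the 99 genes took 0.157% to 0.197% in the SW lines and 0.272% to 0.361% in PEO4. Of the markers that fit the labels, PAX8 had 9591 to 11577 counts per PEO4 library against 634 to 1069 in the SW lines, and CDX2 had 292 to 494 per SW library against at most 3 in PEO4. Others went against them: KRT20 had at most 24 counts in any library, LGR5 had 18 to 28 in SW480 against 1470 to 2320 in SW620, and mean FOLR1 was 18.2 CPM in SW620 against 11.5 and 7.82 CPM in PEO4 control and TGFbeta. Summed over 4 epithelial markers, levels were 1918 to 5444 CPM (a gene's counts relative to its library's total, with totals scaled by the trimmed mean of M values within each comparison) in the 12 libraries. The 4 fibroblast markers summed to 0.597 to 1.92 CPM in PEO4, 2.12 to 2.49 in SW480 and 8.09 to 15.8 in SW620, the 4 endothelial markers to 1.79 to 3.29 CPM in PEO4, 3.49 to 3.6 in SW480 and 5.64 to 10.2 in SW620, and the 4 leukocyte markers to 0.283 to 6.54 CPM. Intestinal markers summed to 38.5 to 63.1 CPM in SW480, 298.5 to 430.5 in SW620 and 0.560 to 2.91 in PEO4, and 4 Muellerian markers to 84.4 to 144 CPM in the SW lines, 4112 to 7511 in PEO4 control and 2267 to 3902 in PEO4 with TGFbeta. SW620 replicate 3 stood apart from the other SW libraries. In it, 17 genes with a mean of at least 50 CPM in PEO4 and a median of at most 0.25 CPM in the other SW libraries lay at a median of 1.32% of their PEO4 level, against 0.0285% to 0.378% for genes chosen the same way in the other 5 SW libraries. For genes chosen the other way round, high in the SW lines and low in PEO4, control replicate 3 lay at 0.950% and TGFbeta replicate 3 at 1.18% of the SW level, against 0.138% to 0.457% in the other 4 PEO4 libraries. Genes on the opposite strand or within the same span overlap CDH1, CDH2, CDH3, CDH6, CDH11, CDH13, CDH23, DSG2, PKP4, PCDH9 and PCDH20, among others. Beta protocadherins such as PCDHB2, PCDHB14 and PCDHB16 have 3506 of 4126, 4659 of 4828 and 3754 of 5001 exonic bases free of other genes. PCDHA10 has 9555 of 15224. Whether counting used strand, and how it treated reads in overlaps, is not given in the sources used here. This leaves each of these genes with an unknown part of its reads from a neighbour.

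Between the colorectal lines, SW620 held almost no P-cadherin (CDH3) or OB-cadherin (CDH11), both well expressed in SW480. It held more T-cadherin (CDH13), protocadherin 19, LI-cadherin (CDH17) and 6 of the 17 gamma protocadherins tested. E-cadherin and the desmosomal cadherins did not pass the test. By edgeR's quasi-likelihood test over all 20941 genes tested, with a Benjamini-Hochberg adjusted p under 0.05, 24 of the 56 members that passed the filter on low counts were called, 13 higher and 11 lower in SW620. Over all genes tested, 30.5% were called, 13.5% higher and 17% lower, against 42.9% of the members. By role, the share called was 60% of 5 type II cadherins, 80% of 5 other cadherins and 80% of 5 non-clustered protocadherins. It was 66.7% of 6 plaque genes, 35.3% of 17 gamma and 22.2% of 9 beta protocadherins. Type I cadherins gave 25% of 4 and desmosomal cadherins 0% of 5. A filter of 10 counts in every library left out CDH3, CDH11, CDH12, CDH16, CDH17, PCDH7 and PCDHGB4. These entered the test through the line where they were higher, which favours calls in that direction and bears on these shares. The median log2 fold change was 0.44 over the members tested and 0.03 over all genes. Groups did not overlap for 34 of the 56, against 44.1% of all genes tested. A further 18 of the 99 had 3 counts or fewer in all 6 SW libraries. Without SW620 replicate 3, 30 members were called, among them these 24.

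**Figure D1:**
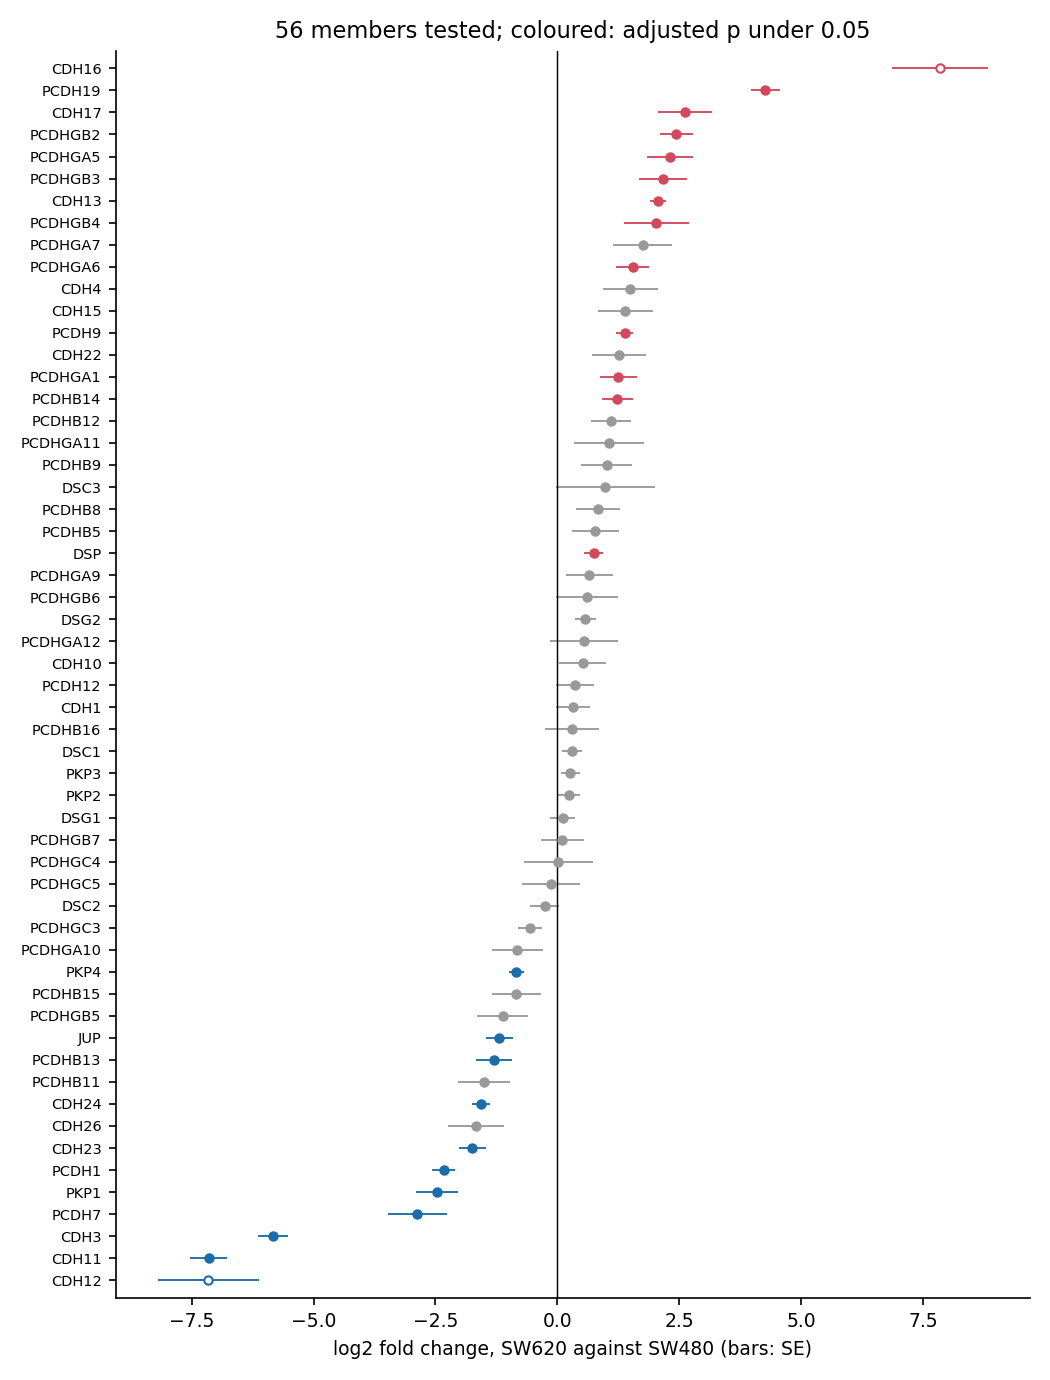
Each point is the log2 fold change of 1 of the 56 members tested, SW620 against SW480, with its standard error; red points were higher and blue points lower in SW620 at an adjusted p under 0.05, and open points had no counts in 1 of the lines, so that their fitted values do not measure the size of the difference. CDH16 (7.85) and PCDH19 (4.26) stand at the upper end and CDH12 (-7.15), CDH11 (-7.15) and CDH3 (-5.83) at the lower end, while CDH1 (0.32) lies near 0.

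Among type I cadherins, which carry adherens junctions, CDH3 was the 1 of 4 tested that was called. CDH3 (chr16:68636189-68722616, plus strand, GENCODE 29) stood at 40.0, 29.1 and 44.0 CPM in the SW480 libraries and at 0.814, 0.363 and 0.772 CPM in SW620. The groups were far apart, 37.7 ± 7.73 against 0.650 ± 0.249 CPM (mean ± SD, n = 3 each), a log2 fold change of -5.83 ± 0.31 (SE, edgeR's adjusted p = 4.76e-06). Of the 15 CDH3 counts in SW620 replicate 3, 6.18 are what PEO4 RNA at 1.32% would give. CDH1, whose gene begins 14608 bases downstream of CDH3 on the same strand, had 48.3, 25.5 and 58.2 CPM in SW480 and 63.8, 32.6 and 68.2 CPM in SW620. These libraries overlapped, with replicate 2 the lowest in both lines, and the difference of 0.32 ± 0.34 did not pass (adjusted p = 0.537). With a block for replicate number CDH1 was called higher, with and without a GC correction. CDH2 had at most 1 count in any SW library. CDH4 (R-cadherin) and CDH15 (M-cadherin) were low, 5 to 41 and 3 to 22 counts, and not called.

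The type II cadherins, a class often found in mesenchymal and neural cells, were lower in SW620 wherever called, 3 of 5 tested. CDH11 and CDH12 passed the filter on low counts through SW480 alone, which favours calls lower in SW620. CDH11 (chr16:64943753-65126112), named for osteoblasts and widely expressed in mesenchyme, had 761, 576 and 884 counts in SW480 and 2, 9 and 5 in SW620. The means were 43.0 ± 6.53 and 0.303 ± 0.221 CPM, with no SW620 library near any of SW480 (log2 fold change -7.15 ± 0.37, adjusted p = 4.10e-06). CDH12, a brain cadherin, had 12, 19 and 20 counts in SW480 and none in SW620, at least 6.05-fold lower when each SW620 library is set at a floor of 3 counts (adjusted p = 0.00212). CDH24 stood at 38.7, 38.0 and 30.2 CPM in SW480 and 11.6, 14.3 and 10.3 CPM in SW620, 2.96-fold lower (adjusted p = 0.000316). CDH6 (K-cadherin) had 2, 8 and 3 counts in SW480 and 3, 2 and 30 in SW620. The 30 were in replicate 3, where PEO4 RNA at 1.32% would give 38.1. CDH6 itself meets the rule that chose the genes for this share, so the 30 and the 38.1 are not independent. CDH5, the endothelial cadherin, had at most 4 counts in any SW library.

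All 5 of the other cadherins were tested, and 4 were called. T-cadherin (CDH13), which lacks a cytoplasmic tail and is held by a lipid anchor, stood at 43.6, 36.7 and 41.6 CPM in SW480 and at 188, 147 and 174 CPM in SW620. It was 4.17-fold higher in SW620 with no overlap (log2 fold change 2.06 ± 0.17, adjusted p = 3.40e-05), and by mean CPM it stood second to DSP there, ahead of JUP by less than the SD of JUP. LI-cadherin (CDH17), a cadherin of intestinal epithelium, rose from 9, 16 and 5 counts to 39, 67 and 94 (2.61 ± 0.55, adjusted p = 0.00640). Kidney cadherin (CDH16) had no counts in SW480 and 20, 33 and 35 in SW620, at least 9.24-fold higher against the same floor (adjusted p = 0.00106). CDH23, a part of the tip link of hair cells, fell from 5.92 to 7.69 CPM in SW480 to 1.96 to 2.23 CPM in SW620 (-1.74 ± 0.27, adjusted p = 0.00133). CDH26 had 16 to 34 counts in SW480 and 4 to 11 in SW620 and was not called (adjusted p = 0.0560). Intestinal, fibroblast and endothelial markers also summed higher in SW620 without overlap (values above), the last 2 mainly through LUM (4 to 6 counts in SW480, 102 to 231 in SW620) and PECAM1 (2 to 5 against 33 to 95), and their part in these differences was not tested.

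**Figure D2:**
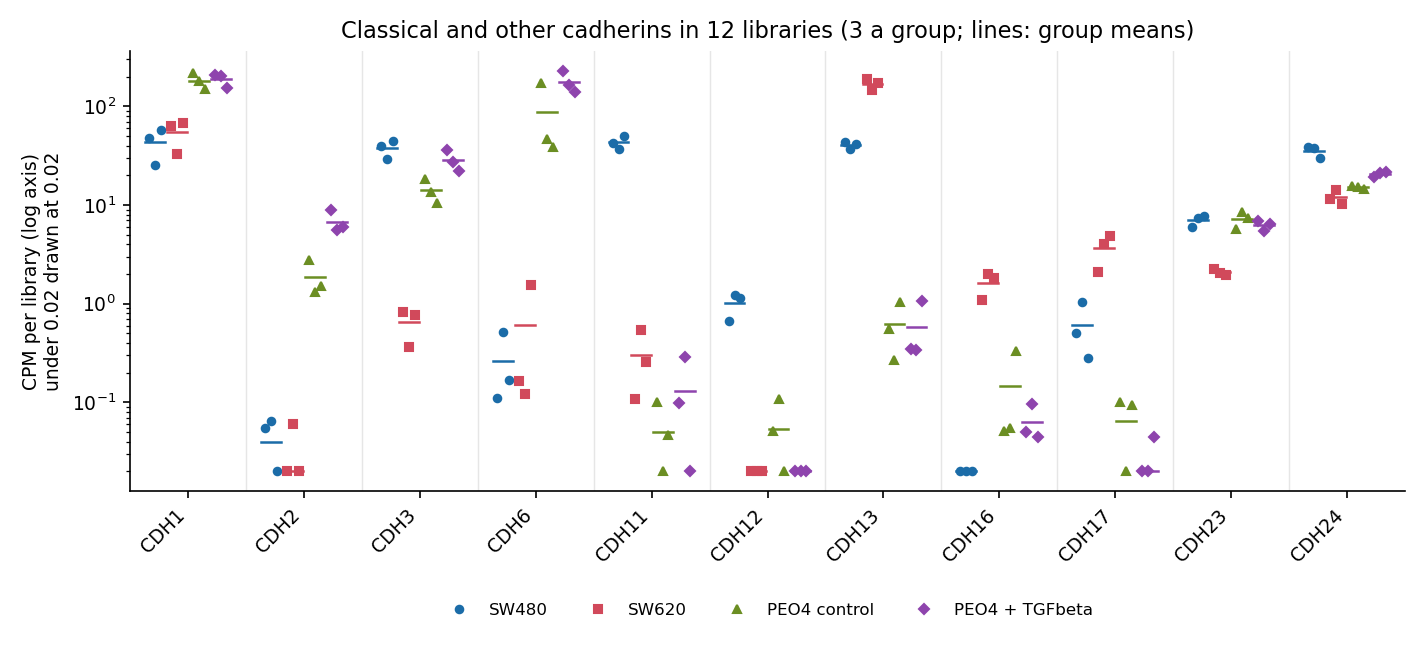
CPM on a log axis of 11 cadherins in each of the 12 libraries; points are libraries, short lines group means, and values under 0.02 CPM are drawn at 0.02. CDH3 and CDH11 are high in SW480 and under 1 CPM in SW620, CDH13 is highest in SW620 and near 1 CPM or below in PEO4, and CDH2 and CDH6 are carried by the PEO4 libraries.

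Desmosomal cadherins gave no call between the SW lines by edgeR's test as used here or by DESeq2. Of 5 tested, 0 passed, with 1 at an unadjusted p under 0.05 by edgeR's test, a level that 8524 of all 20941 genes tested reached. DSG2, the desmoglein of simple epithelia, stood at 65.4, 62.4 and 70.3 CPM in SW480 and at 108, 66.0 and 121 CPM in SW620, overlapping groups with a difference of 0.57 ± 0.22 (adjusted p = 0.0851). In 6 of 17 alternatives DSG2 was called higher, among them upper-quartile scaling, total-count scaling and the fit without SW620 replicate 2. DSC2, its partner in simple epithelia, had 7.14 to 9.67 CPM in SW480 and 5.32 to 10.2 in SW620 (-0.26 ± 0.30, adjusted p = 0.556). Of the 199 DSC2 counts in SW620 replicate 3, 108 are what PEO4 RNA at 1.32% would give. DSC3 had 12, 12 and 14 counts in SW480 and 19, 0 and 65 in SW620, the last in replicate 3, where that share would give 75.3. DSC1 and DSG1, known from the upper layers of skin, had 109 to 179 and 75 to 115 counts. DSG3 had at most 1 count and DSG4 at most 9 in these libraries.

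Plaque genes changed in both directions in SW620: desmoplakin rose, and plakoglobin and 2 plakophilins fell, 4 of 6 genes called. DSP (chr6:7541575-7586717), which joins the plaque to keratin filaments, stood at 443, 384 and 463 CPM in SW480 and 771, 597 and 785 CPM in SW620 (0.74 ± 0.20, adjusted p = 0.0191). JUP (chr17:41754604-41786931), the catenin shared by desmosomes and adherens junctions, stood at 359, 268 and 383 CPM in SW480 and 147, 96.4 and 198 CPM in SW620 (-1.19 ± 0.27, adjusted p = 0.00983). In neither gene did the groups overlap. PKP4, a plakophilin relative also found at adherens junctions, fell from 222 ± 6.45 CPM to 124 ± 10.2 CPM (-0.84 ± 0.16, adjusted p = 0.00325). PKP1, a plakophilin of stratified epithelia, fell from 104, 80 and 166 counts to 27, 10 and 30 (-2.47 ± 0.43, adjusted p = 0.00228). PKP2 and PKP3, the plakophilins of simple epithelia, overlapped between the lines, at 105.9 ± 23.2 against 124.1 ± 30.1 CPM and 67.1 ± 9.10 against 80.6 ± 19.3 CPM (adjusted p = 0.508 and 0.370).

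**Figure D3:**
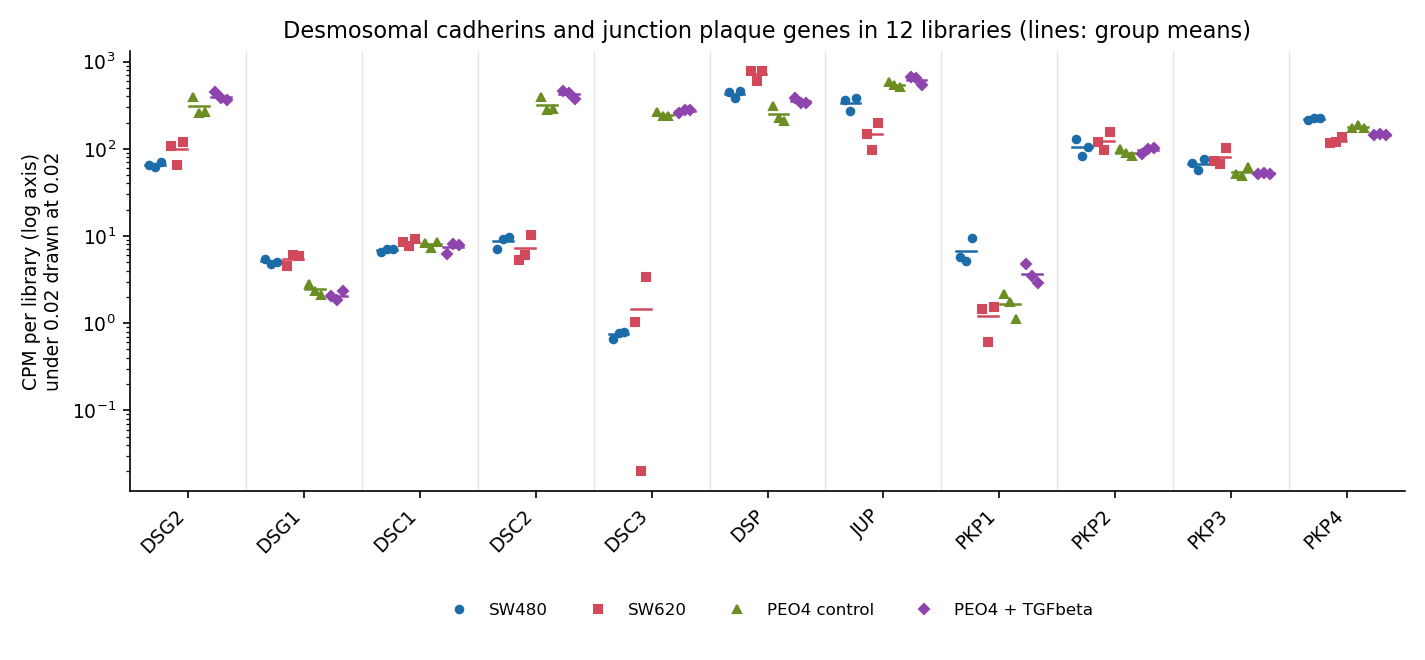
CPM on a log axis of 5 desmosomal cadherins and 6 plaque genes in each of the 12 libraries; points are libraries, short lines group means, and values under 0.02 CPM are drawn at 0.02. DSC2 and DSC3 stand at 237 CPM or above in every PEO4 library and at 10.2 CPM or below in every SW library, while PKP3 lies between 48.3 and 103 CPM in all 12.

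Of the non-clustered protocadherins, genes outside the arrays, 4 of 5 tested were called, 2 in each direction. PCDH19 (chrX:100291644-100410273), an X-linked gene known for epilepsy when mutated, had 57, 104 and 110 counts in SW480 and 1946, 1371 and 2287 in SW620. The lines were separated by 19.1-fold (4.26 ± 0.30, adjusted p = 1.46e-05). PCDH9 rose from 12.4, 18.1 and 14.2 CPM to 36.5, 40.7 and 38.5 CPM (1.37 ± 0.18, adjusted p = 0.000498). PCDH1, expressed in many epithelia, fell from 109, 76.8 and 107 CPM to 18.8, 14.6 and 24.8 CPM (-2.33 ± 0.24, adjusted p = 0.000108). PCDH7 fell from 18, 55 and 45 counts to 6, 7 and 4 (-2.87 ± 0.60, adjusted p = 0.00612).

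Clustered protocadherin counts in the SW lines came almost all from gamma and beta genes. No alpha member passed the filter: the 14 genes together had 2 to 15 counts per SW480 library and 11, 1 and 35 in the SW620 libraries, the 35 in replicate 3. Of the C-type alpha genes outside the rule, PCDHAC1 had 4, 4 and 5 counts in SW480 and 5, 3 and 7 in SW620. PCDHAC2 had 8, 9 and 14 against 15, 17 and 16 and was tested but not called (0.55 ± 0.47, adjusted p = 0.429). Beta members summed to 13.1 ± 2.22 CPM in SW480 and 16.9 ± 3.65 CPM in SW620. PCDHB14 rose from 39, 60 and 48 counts to 147, 84 and 143 (1.23 ± 0.32, adjusted p = 0.0188), and its neighbour PCDHB13 fell from 41, 45 and 46 to 24, 14 and 19 (-1.30 ± 0.38, adjusted p = 0.0281). The other 7 beta genes tested were not called.

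Gamma members gave 6 of the 13 genes called higher in SW620 and none called lower, of 17 tested. That is 35.3%, against 30.5% of all genes tested called in either direction and 13.5% called higher. A gene with few counts in SW480, such as PCDHGB4, can pass the filter through SW620 alone, which favours calls in that direction. Of these 6, 5 lie in the stretch from PCDHGB2 to PCDHGB4, which in chromosomal order holds PCDHGB2, PCDHGA5, PCDHGB3, PCDHGA6, PCDHGA7 and PCDHGB4. The ends of this stretch were set by the called genes themselves, after their values were seen. PCDHGB2 (variable region starting at chr5:141360042) had 23, 22 and 14 counts in SW480 and 122, 112 and 105 in SW620 (2.43 ± 0.34, adjusted p = 0.000680). PCDHGA5 had 17, 18 and 10 against 68, 111 and 54, and PCDHGB3 had 14, 29 and 11 against 90, 106 and 64. Both were without overlap, at 2.30 ± 0.47 (adjusted p = 0.00528) and 2.17 ± 0.49 (adjusted p = 0.00886). PCDHGA6 went from 46, 29 and 36 counts to 108, 141 and 86 (1.54 ± 0.34, adjusted p = 0.00790), and PCDHGB4 from 5, 13 and 3 to 26, 46 and 20 (2.03 ± 0.67, adjusted p = 0.0489). PCDHGA7, inside the stretch, had 12, 19 and 6 against 64, 48 and 21 counts and missed the threshold (adjusted p = 0.0567). DESeq2 called PCDHGA7 higher, as did the authors' deposited table (log2 fold change 1.76, adjusted p = 0.0225). The annotated exons of PCDHGB4 overlap those of PCDHGA8, the next gene, beyond the constant exons. Of their 6906 and 8661 exonic bases, 2459 and 4214 lie in no other gene. How reads in this overlap were counted is not given, so the 2 genes may not be measured apart. PCDHGA8 had 4, 5 and 2 counts in SW480 and 9, 34 and 15 in SW620, without overlap between the lines. It was under the filter on low counts in the fit used here and was called higher by DESeq2 and in the authors' deposited table (log2 fold change 2.35, adjusted p = 0.0276). PCDHGB5, which follows PCDHGA8 and shares the 30 promoter letters of PCDHGB4, had 31, 17 and 15 against 14, 10 and 6 counts (-1.12 ± 0.53, adjusted p = 0.145). The sixth called gene, PCDHGA1, opens the array at 18, 23 and 15 against 50, 43 and 50 counts (1.25 ± 0.38, adjusted p = 0.0351).

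PCDHGC3, a C-type gamma gene at the far end of the array, went the other way without passing the test, 43.4, 32.5 and 48.1 CPM in SW480 and 28.2, 19.0 and 36.5 CPM in SW620 (-0.57 ± 0.25, adjusted p = 0.124). It held 53.6% to 77.5% of the gamma counts in the SW480 libraries and 25.6% to 55.5% in SW620. Counted as 1 gene, the gamma array was not called (0.19 ± 0.14, adjusted p = 0.364). Without PCDHGC3, an alternative added after the data were seen, the array stood at 17.4, 28.1 and 14.0 CPM in SW480 and 40.5, 55.3 and 29.2 CPM in SW620 (1.07 ± 0.31, adjusted p = 0.0266). That call was lost without SW480 replicate 1, SW480 replicate 3 or SW620 replicate 1 (adjusted p 0.0711 to 0.0934).

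Of the 24 calls, 18 remained in each of the 6 fits that left out 1 library. DSP was lost without any 1 of the SW480 libraries or SW620 replicate 1 (largest adjusted p = 0.0869), and JUP without replicate 1 of either line (0.0661). PCDHB13 was lost without any library but SW620 replicate 3 (0.0954), PCDHB14 and PCDHGA1 without SW480 replicate 1 or 3 or SW620 replicate 1 (0.0848 for PCDHB14), and PCDHGB4 without those or SW620 replicate 2 (0.164). PCDHGB4 was also lost with upper-quartile and total-count scaling, and PCDHGA1 with upper-quartile scaling and with no filter on low counts. In the authors' deposited table for this comparison 27 members passed at the same threshold, and 23 of them are among these 24.

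**Figure D4:**
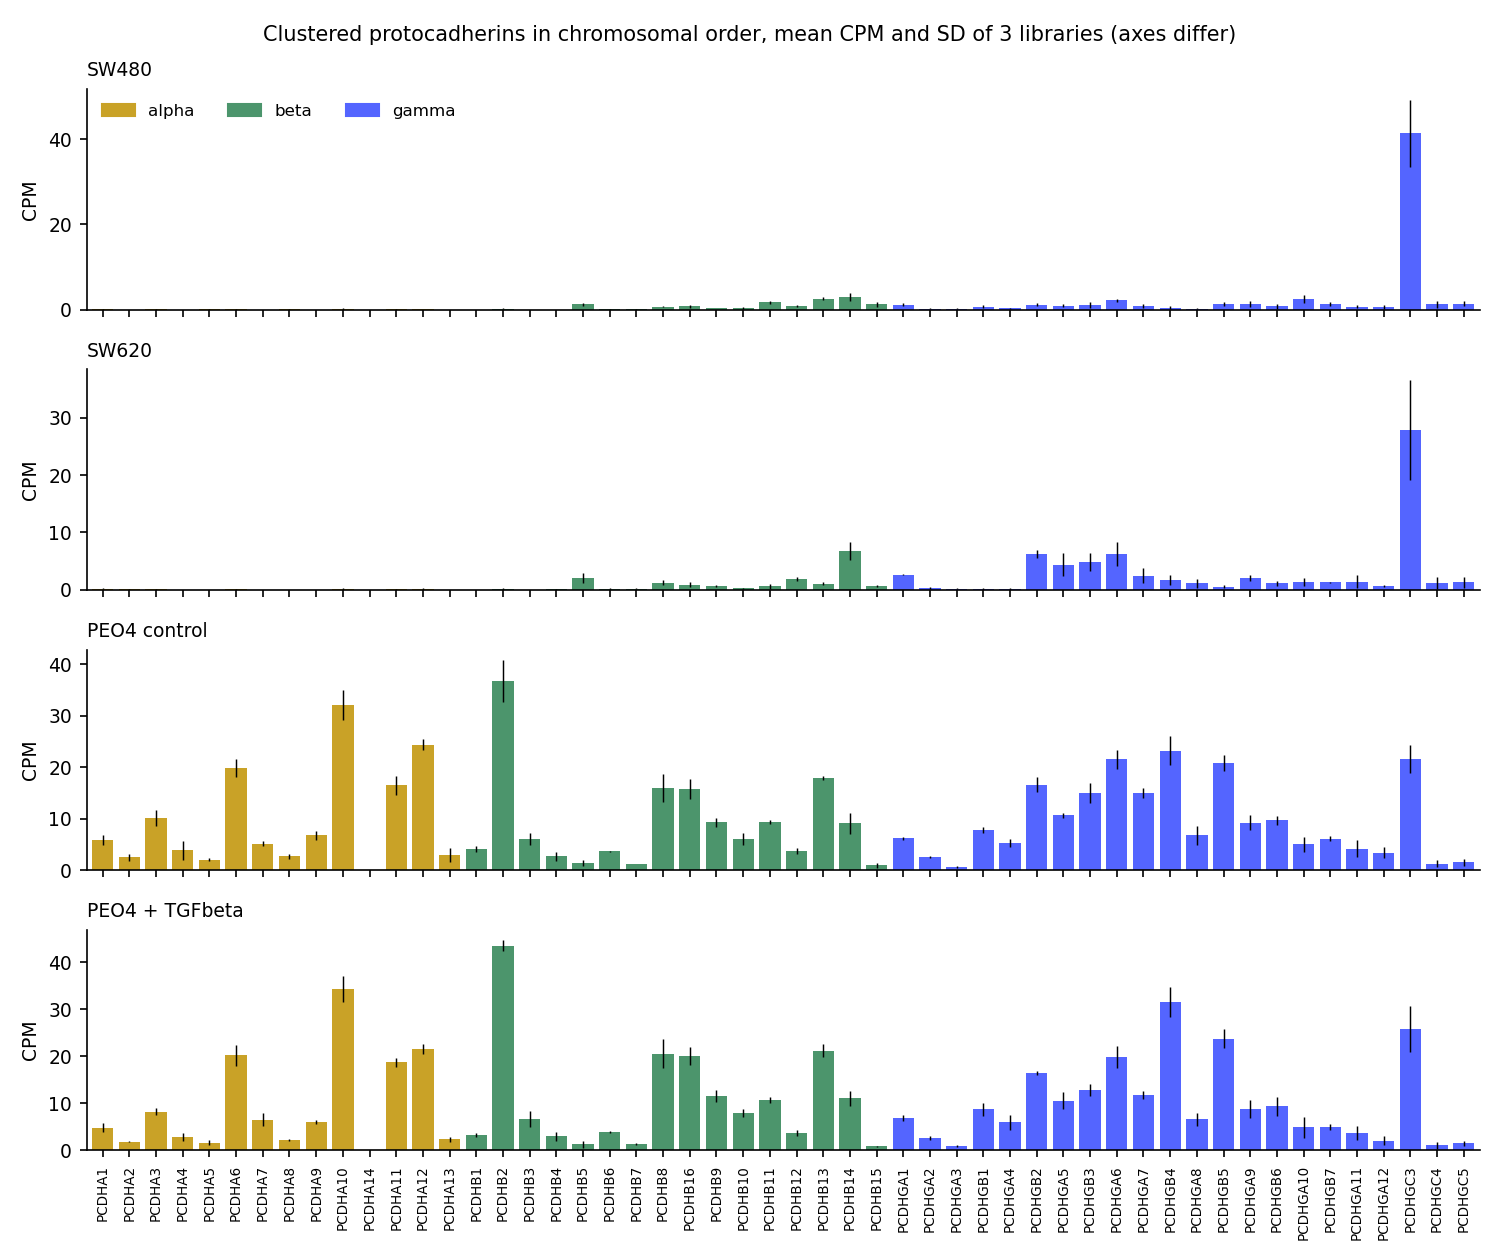
Bars are mean CPM of the clustered protocadherins in chromosomal order in each group, without PCDHAC1 and PCDHAC2, with the SD of 3 libraries. The vertical axes differ between panels. PEO4 uses all 3 arrays, the SW lines show almost no alpha signal, PCDHGC3 is the tallest bar in both SW lines, and the bars from PCDHGB2 to PCDHGA6 are taller in SW620 (4.39 to 6.27 CPM) than in SW480 (0.888 to 2.15 CPM).

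In PEO4, N-cadherin (CDH2) rose 3.62-fold with TGFbeta and was the 1 member called of 79 tested. E-cadherin (CDH1) was not called, with a difference of 0.04 ± 0.15 on the log2 scale. Over all 19064 genes tested 2.26% were called, 1.27% higher and 0.991% lower, against 1 of 79 members. The median log2 fold change was -0.02 over the members and -0.02 over all genes. An unadjusted p under 0.05 was reached by 18 of the 79 members and by 3175 of all 19064 genes tested. The groups did not overlap for 17 members, 21.5%, against 21.4% of all genes. The other 20 members were not tested, 11 of them with 3 counts or fewer in all 6 libraries.

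CDH2 (chr18:27950966-28177446, minus strand) had 55, 24 and 32 counts in the control libraries and 178, 115 and 135 with TGFbeta. Every treated library was above every control (1.86 ± 0.32, adjusted p = 0.0216). The call was lost without control replicate 2, control replicate 3, TGFbeta replicate 1 or TGFbeta replicate 2 (adjusted p up to 0.122, log2 fold change 1.63 to 2.28 over the 6 such fits). The 4 fibroblast markers, a cell type that also expresses CDH2, summed to 0.597 to 0.893 CPM in control and 1.21 to 1.92 CPM with TGFbeta, with 1 to 2 of the 4 at 3 counts or fewer throughout, and their part in the CDH2 difference was not tested. The Muellerian markers summed lower with TGFbeta without overlap (values above), with WT1 called (-0.47, adjusted p = 0.0274), and their part was not tested either. CDH1 (chr16:68737225-68835548) stood at 216, 182 and 149 CPM in control and 207, 202 and 154 CPM with TGFbeta (adjusted p = 0.916), and its sign changed in 3 of the fits that left out a library. Per kilobase of exon, CDH1 exceeded CDH2 by 61.8-fold, 112-fold and 79.3-fold in the control libraries and by 18.8-fold, 29.4-fold and 20.5-fold with TGFbeta. CDH3 had 18.5, 13.6 and 10.4 CPM in control and 36.2, 27.5 and 22.1 CPM with TGFbeta, without overlap and just short of the threshold (1.01 ± 0.23, adjusted p = 0.0570).

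CDH6, a type II cadherin of kidney and of ovarian carcinoma, had 3426, 870 and 817 counts in the control libraries and 4625, 3396 and 3158 with TGFbeta. Control replicate 1 lay among the treated libraries, the groups overlapped, and the difference of 1.04 ± 0.49 did not pass (adjusted p = 0.332). Without control replicate 1 it was 2.07 (adjusted p = 0.00103). CDH24 stood at 15.5, 15.3 and 14.4 CPM in control and 19.2, 21.1 and 21.9 CPM with TGFbeta (0.46 ± 0.10, adjusted p = 0.0564). CDH5 had 8 to 17 counts in every PEO4 library (-0.36 ± 0.46, adjusted p = 0.751). CDH11 had at most 6 counts, CDH16 at most 7 and CDH17 at most 2 in any PEO4 library, and none of these was tested.

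Among desmosome genes in PEO4, 0 of 5 desmosomal cadherins and 0 of 6 plaque genes passed edgeR's test, with 1 and 3 at an unadjusted p under 0.05. That level was reached by 3175 of all 19064 genes tested. DESeq2 called DSP and PKP1, limma-voom called none, and edgeR with no filter on low counts called DSP, DSC2, DSG2 and PKP1. DSP stood at 310, 225 and 208 CPM in control and 380, 337 and 333 CPM with TGFbeta, without overlap (0.50 ± 0.14, adjusted p = 0.124). DSC2 had 391, 280 and 287 against 462, 440 and 376 CPM (0.41 ± 0.14, adjusted p = 0.180), and DSG2 had 397, 260 and 261 against 447, 382 and 359 CPM (0.37 ± 0.17, adjusted p = 0.303). In both, control replicate 1 reached into the range of the treated libraries. DSC3, at 237 to 262 against 257 to 281 CPM, differed by 0.15 ± 0.08 (adjusted p = 0.407). JUP, the most counted member in PEO4, had 506 to 578 against 542 to 663 CPM (0.18 ± 0.10, adjusted p = 0.407). PKP2 overlapped between the groups (0.09 ± 0.10, adjusted p = 0.693), as did PKP3 (-0.04 ± 0.10, adjusted p = 0.885). PKP4 was lower in every treated library, 143 to 149 against 172 to 187 CPM (-0.28 ± 0.07, adjusted p = 0.0968). PKP1 had 42, 32 and 24 counts in control and 97, 72 and 64 with TGFbeta (1.15 ± 0.31, adjusted p = 0.103).

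Without control replicate 1, 10 members were called: CDH2, CDH3, CDH6, CDH24, DSP, DSC2, DSG2 and PCDHGB4 higher, and CDH22 and PCDH7 lower with TGFbeta. Calls over all genes also rose in that fit, to 1080 of 20088 tested (5.38%). In that fit DSP stood at 0.71, DSC2 at 0.60 and DSG2 at 0.62 on the log2 scale (adjusted p = 0.00523, 0.0160 and 0.0155). Replicate 1 had the highest CPM of its group in control and with TGFbeta alike for CDH1, CDH2, CDH3, CDH6, DSP, DSC2, DSG2, JUP, PKP1 and PCDHGB4. The authors' deposited table lists CDH2, PKP1, PKP4, PCDH7, PCDHGB4, DSP, CDH24 and CDH3 with an adjusted p under 0.05, of which CDH2 alone was called here.

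**Figure D5:**
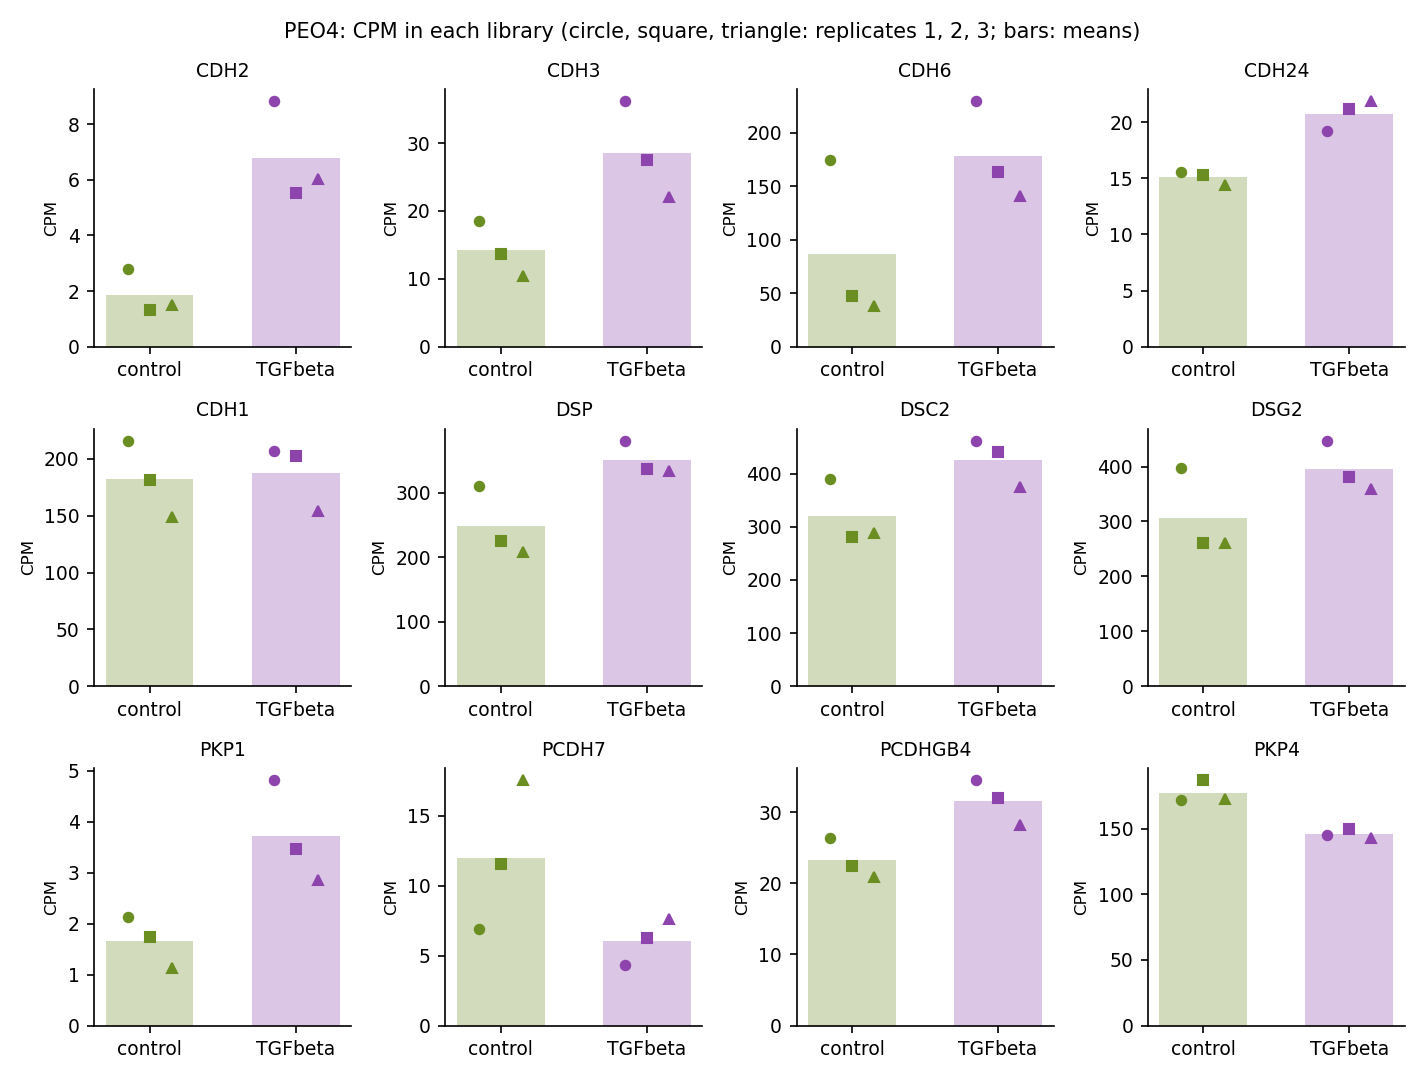
CPM of 12 members in each PEO4 library; circles, squares and triangles are replicates 1, 2 and 3 and bars are group means from 0. CDH2 is the 1 gene called; for CDH6, DSC2 and DSG2 the circle of the control group lies at the height of the treated libraries, and CDH1 is level between the groups.

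No clustered protocadherin was called with TGFbeta. By edgeR's test 0 of 13 alpha, 0 of 16 beta and 0 of 22 gamma members passed. An unadjusted p under 0.05 was reached by 0, 5 and 2 of them, and by 3175 of all 19064 genes tested. DESeq2 called PCDHGB4. The 14 alpha members, without PCDHAC1 and PCDHAC2, together held 134.5 ± 6.99 CPM in control and 131.2 ± 6.19 CPM with TGFbeta (-0.04 ± 0.08 on the log2 scale, adjusted p = 0.860). PCDHAC1 stood at 13.2 ± 2.65 and 12.4 ± 2.18 CPM and was not called (adjusted p = 0.863). PCDHAC2, at 4.67 ± 0.207 and 3.20 ± 0.366 CPM, was lower with TGFbeta without overlap and not called (-0.54 ± 0.19, adjusted p = 0.196). PCDHA10 led the alpha members in all 6 libraries with 22.3% to 26.9% of their counts, followed by PCDHA12 and PCDHA6. It also has the longest exons of them. Per kilobase of exon PCDHA12 led instead, at 4.47 CPM in control and 3.96 CPM with TGFbeta, and PCDHA10 stood at 2.11 and 2.25 CPM. The beta array held 143.8 ± 15.2 and 170.5 ± 13 CPM (0.25 ± 0.10, adjusted p = 0.259), led by PCDHB2 at 36.7 ± 4.08 and 43.5 ± 1.11 CPM. The gamma array held 213.8 ± 18.4 and 220.4 ± 27.9 CPM (0.04 ± 0.11, adjusted p = 0.883), with no member dominant: PCDHGC3 took 8.93% to 12.4% of its counts. PCDHGB4, whose annotated exons overlap those of PCDHGA8, had the highest gamma mean CPM in both groups, at 26.3, 22.5 and 20.9 CPM in control and 34.5, 32.0 and 28.2 CPM with TGFbeta (0.44 ± 0.12, adjusted p = 0.102). Per kilobase of exon PCDHGB5 stood above PCDHGB4, at 4.30 against 3.36 CPM in control and 4.89 against 4.57 CPM with TGFbeta. Per kilobase free of other genes the order turned, with PCDHGB5 at 7.81 against 9.44 CPM and 8.88 against 12.8 CPM. Among non-clustered protocadherins, 0 of 8 were called by edgeR's test, with 3 at an unadjusted p under 0.05, and DESeq2 called PCDH7. PCDH7 had 6.92, 11.6 and 17.5 CPM in control and 4.31, 6.24 and 7.64 CPM with TGFbeta (-0.98 ± 0.32, adjusted p = 0.174).

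Set side by side over the 4 groups, without a test because line, tissue and medium differ together and the PEO4 and SW libraries were scaled separately, the members' levels were as follows. A mean above 1 CPM was reached by 40 of the 99 genes in SW480, 45 in SW620 and 72 in each PEO4 group. Clustered genes made up most of the gap: 13 alpha, 15 beta and 21 gamma genes were above 1 CPM in PEO4 control, against 0, 5 and 11 in SW480 and 0, 5 and 16 in SW620. Per kilobase of exon, JUP led in SW480 (68.1 ± 12.3 CPM), PEO4 control (110 ± 7.27) and PEO4 with TGFbeta (125 ± 13.3), and DSP led in SW620 (71.1 ± 10.4). In SW480, DSP (42.6 ± 4.09) and PKP4 (23.3 ± 0.677) followed, each apart from the one before by more than its SD. In SW620, JUP (29.8 ± 10.3) and PKP3 (21.3 ± 5.08) came next, apart by less than the SD of JUP but by more than that of PKP3. In PEO4 control the order after JUP was DSG2 (49.4 ± 12.7), DSC3 (34.8 ± 1.99), CDH1 (29.5 ± 5.43) and DSC2 (25.6 ± 4.95), and from DSC3 on these neighbours lay within an SD of each other. DSC2 and DSC3 had 237 to 462 CPM in the PEO4 libraries and at most 10.2 CPM in any SW library, whereas DSG2 had 62.4 to 121 CPM in the SW libraries and 260 to 447 CPM in PEO4. CDH13 showed the reverse, 36.7 to 188 CPM in the SW libraries and at most 1.07 CPM in PEO4. CDH1 per kilobase was exceeded by CDH13 in SW620 by 1.41-fold to 2.48-fold, and by none of CDH2, CDH6, CDH11 and CDH13 in any PEO4 library. Counts cannot tell fewer cells that express a gene from less RNA per cell.

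Partners of these genes, in lists of catenins and nectins, desmosome-linked genes, other superfamily genes, cleavage genes and regulators, were read in the same fits. Of 50 tested in the SW lines, 20 were called, 7 higher and 13 lower in SW620, with a median log2 fold change of -0.26; that is 40.0%, against 30.5% of all genes tested. Among catenins and nectins 5 of 11 were called. Beta-catenin (CTNNB1), which binds classical cadherins and serves Wnt signalling, fell from 1478, 934 and 1588 CPM to 396, 235 and 528 CPM (-1.79 ± 0.33, adjusted p = 0.00332). Alpha-catenin (CTNNA1) fell from 694, 519 and 679 to 256, 173 and 294 CPM (-1.39 ± 0.24, adjusted p = 0.00238). CTNNAL1 (-1.17, adjusted p = 0.00345) and NECTIN3 (-1.64, adjusted p = 0.0279) were lower and NECTIN1 higher (0.86, adjusted p = 0.0145), while p120-catenin (CTNND1) at 0.54 ± 0.19 was not called (adjusted p = 0.0571).

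Among desmosome-linked genes 2 of 7 were called, PERP, a membrane protein of desmosomes, higher (1.87) and periplakin (PPL) lower (-1.21). Among the other superfamily genes 6 of 15 were called. Calsyntenin 2 (CLSTN2) had 7386, 5626 and 7094 counts in SW480 and 87, 54 and 64 in SW620 (-6.69 ± 0.24, adjusted p = 1.57e-06), and FAT1 (-1.62), CELSR1 (-1.64), CDHR3 (-2.28) and DCHS2 (-1.97) were also lower. CDHR2, a cadherin of the intestinal brush border, rose from 101, 239 and 115 counts to 1839, 2538 and 1956 (3.69 ± 0.40, adjusted p = 0.000152). Among the cleavage genes the sheddase ADAM17 (-0.78) and the convertase FURIN (-1.05) were lower. Among 9 regulators SNAI1 (1.26), ZEB1 (0.79), TCF3 (0.80) and CTCF (0.70), all known to act on cadherin or protocadherin genes, were higher. The calls for CTCF, DCHS2, FURIN, NECTIN1, NECTIN3, SNAI1 and TCF3 were lost in at least 1 fit without a library (largest adjusted p 0.0603 to 0.132). In PEO4 3 of 56 were called, 5.36% against 2.26% of all genes tested. KRT7, a simple-epithelial keratin, rose from 13167, 9264 and 9838 counts to 26680, 25147 and 21893 (1.10, adjusted p = 0.0114), CLSTN2 from 282, 233 and 273 to 425, 534 and 697 (0.97, adjusted p = 0.0146), and CTNND2, a neural catenin, fell from 769, 1045 and 1211 to 447, 522 and 539 (-1.10, adjusted p = 0.00773). The KRT7 and CLSTN2 calls were lost without control replicate 2 or TGFbeta replicate 2 and the CTNND2 call without control replicate 2 (adjusted p up to 0.0897 for KRT7 and 0.0531 for CTNND2). With all 12 libraries in 1 model the KRT7 and CTNND2 calls were lost too (adjusted p = 0.165 and 0.0715). CTNNA1 (-0.06), CTNNB1 (0.05) and CTNND1 (-0.01) were not called, with adjusted p of 0.747, 0.806 and 0.970.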

How the data were processed

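RNA-seq counts per gene for 12 libraries were deposited as raw whole-number counts, with 2 tables of the authors' own comparisons that give log2 fold changes and p-values. Per the submitters' processing notes, Trimmomatic 0.36, STAR 2.5.2b, featureCounts of Subread 1.5.2 and DESeq2 were used with GRCh38; settings, strand use and annotation release are not given in the sources used here. Column names gave each library's group. Of the 57500 genes, 485 have no symbol, and 56898 IDs were found in GENCODE 29, which gave positions and exon lengths.

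SW620 was compared with SW480, and PEO4 with TGFbeta with PEO4 control, each on its own 6 libraries: filterByExpr, TMM scaling and the quasi-likelihood test of edgeR 4.0.16 in R 4.3.3, Benjamini-Hochberg adjustment over all genes tested and a threshold of 0.05. The SE is the size of the log2 fold change divided by the square root of F. A floor of 3 counts per library, covering counting error only, stands in for a group at 0. Libraries held 14531420 to 22028956 counts, and replicate pairs differed by a chi-square of 11.3 to 70.8 per degree of freedom, so none was a duplicate. Alternatives used DESeq2 1.42.0 and limma 3.58.1 and other scalings, filters and library sets. RefSeq promoters were searched by symbol.

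The members, partner lists, marker lists and the rule for naming genes were chosen with earlier results of these data known. That rule names every called member and partner; CDH1, CDH2, CDH3, CDH5, CDH6, CDH11, CDH16, CDH17, DSG2, DSC2, DSP, JUP, PKP2, PKP3, PKP4, CTNNA1, CTNNB1 and CTNND1 whatever their result; and the 3 members with the most CPM in each group. Other genes named were chosen after their values were seen. The result of 1 partner gene is not reported here. The motifs, the measure of RNA from the other line, and the gamma array without PCDHGC3 were chosen after the data were seen.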

Additional observations from a re-analysis of the deposited data

How the results depend on the processing

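Between SW620 and SW480, 50 genes gave 841 values under the alternatives: 775 kept direction and side of the threshold, 50 lost the call, 16 gained one and none reversed. The members called numbered 19 to 35 over all alternatives and 19 to 30 when 1 library was left out. In PEO4, 18 genes gave 304 values, of which 257 kept direction and side, 11 lost the call, 26 gained one and 10 reversed. The 1 member called there became 7 with DESeq2, 2 with upper-quartile and with total-count scaling, 11 with no filter on low counts, and 0 to 10 when 1 library was left out, with 10 without control replicate 1; the cause was not tested. CTNND1 reversed to 0.00215 with DESeq2, 0.0162 with no filter, 0.0207 with all 12 libraries in 1 model, 0.00112 with a GC correction, 0.0592 without control replicate 1 and 0.0588 without TGFbeta replicate 3. CDH1 reversed to -0.0743 without control replicate 3, -0.0277 without TGFbeta replicate 1 and -0.00231 without TGFbeta replicate 2, and PKP3 to 0.0801 without control replicate 3; the cause was not tested. Over the 6 fits without 1 library, CDH1 ranged from -0.0743 to 0.201, PKP3 from -0.105 to 0.0801 and CTNND1 from -0.0618 to 0.0592. Over all genes, 431 calls in PEO4 became 922 with DESeq2, 1457 with no filter, 165 with all 12 libraries in 1 model, and 72 to 1080 when 1 library was left out. In the SW lines 6385 calls became 4253 to 7419 when 1 library was left out. A filter of 10 counts in every library gave 2713 higher and 2692 lower, and leaving out SW620 replicate 2 gave 3656 and 3632. Same-numbered libraries correlated in their deviations at 0.0159, 0.670 and 0.567 in the SW lines and at 0.291, -0.140 and 0.481 in PEO4, so the numbers were not taken to pair the libraries, and not every library correlated best with its own number. With a replicate block the members called were 35 in the SW lines and 15 in PEO4, DSC2, DSG2, DSP, PKP1 and PKP4 among the latter, with the block and a GC correction 35 and 16, and over all genes 10667 and 2102, or 11091 and 2020 with the GC correction. With all 12 libraries in 1 model 34 SW members were called. Low counts limit what can be said of the alpha array in the SW lines.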
